A study of Mus musculus with 20 samples.

Results

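T follicular helper (TFH) cells that carried the GL7 epitope were compared between Peyer's patches (PP), the lymphoid follicles in the wall of the small intestine, and peripheral lymph nodes (pLN) of mice. The members were defined by their labels, with earlier results of these data known. They were 2 arrays of GL7+ TFH cells of PP, 2 arrays of GL7+ TFH cells of pLN on day 12 and 1 array on day 25 after immunisation, together 5 of the 20 arrays of the series. All mice carried the Foxp3 reporter allele of the strain B6.Cg-Foxp3<tm1Mal>, which marks Foxp3+ cells by GFP. They were 8 to 14 weeks old, and each sample was RNA of cells pooled from 8 to 15 mice of both sexes. The pLN mice had received KLH with Alum under the skin, while the labels of the PP samples name neither an immunisation nor a day. Cells were sorted as CD4+ without B220 and GFP, with a high level of PD1 and with GL7. The remaining arrays (GL7- TFH of PP, naive T of pLN and, from either tissue, regulatory T cells, Treg, and their follicular counterpart, TFR) entered the model that estimated the spread between arrays. Nothing in the labels says whether samples shared mice, so the p-values measure the spread between these pools only.

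TFH cells help B cells in the germinal centre, where they deliver CD40 ligand, IL-21 and IL-4 under the control of the repressor Bcl6, and where the chemokine receptor CXCR5 places them. GL7 is a carbohydrate epitope of activated lymphocytes that is strong on germinal centre B cells and on a fraction of TFH cells. Germinal centres of PP are kept going by microbes and food of the gut, whereas those of pLN form after infection or immunisation. T cells that enter PP use the integrin alpha4 beta7.

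Tissue coincided with the slide. The 4 arrays of a slide held 1 tissue and day, with both day 12 replicates, day 25 and both PP replicates on slides of their own, so a difference between the tissues and one between slides cannot be told apart. Levels are normalised intensities with a floor of 20, and differences are log2 fold changes of PP over the mean of the 3 pLN arrays, with the standard error (SE) of the model. The root mean square log2 difference over tested probes was 0.65 between both PP arrays, 0.54 to 0.82 among the pLN arrays and 0.79 to 1.03 between a PP and a pLN array. PP replicate 1 and day 12 replicate 1 were amplified from 50 ng of total RNA and the other 3 from 40 ng.

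The label of the cells was checked against markers. The sum over 8 TFH markers was 355866 to 546919 in pLN and 554980 and 674903 in PP, and that over 6 CD4 T cell markers 685766 to 848966 and 757560 and 964730, with every gene of both lists detected. Foxp3 was at 27.0 to 94.8 in pLN and at 40.7 and 38.9 in PP. B cell genes moved with the replicate as well as with the tissue: their sum over 13 genes was 28740, 7254 and 7394 on the arrays of day 12 replicates 1 and 2 and of day 25, and 48742 and 15528 in PP. Epithelial genes stood out on 1 array, with a sum over 10 genes of 16907 on PP replicate 1, 1737 on PP replicate 2 and 1079 to 1623 in pLN. The intestinal fatty acid binding protein Fabp2 was at 8977 and 536 in PP and at 45.8, 20 and 20 in pLN. No B cell, epithelial or myeloid marker passed the test. The stromal gene Col3a1 was called higher in PP, below background at 20.1, 38.4 and 20 in pLN and at 85.0 and 61.4 in PP (adjusted p 0.0309), while Col1a1 was not called (1.34, adjusted p 0.0974). Both CD8 genes were lower in PP, with sums of 1995 to 4149 in pLN and 789.6 and 984 in PP. In such bulk samples, fewer cells of a type and less RNA per cell cannot be told apart.

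**Figure D1:**
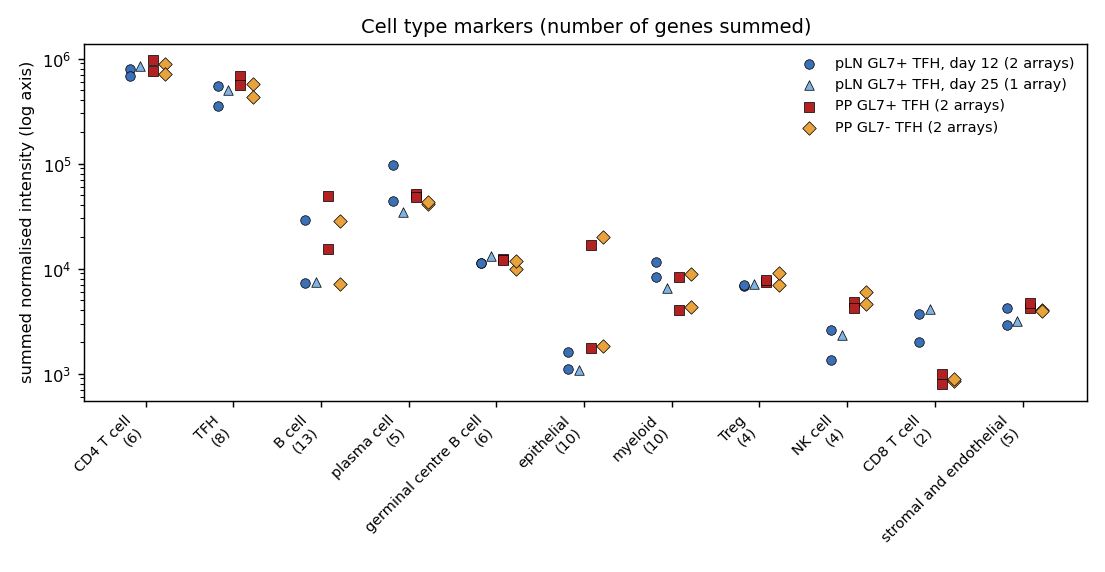
Summed normalised intensity (log axis) of the genes of 11 cell type marker lists on each TFH array, with pLN day 12 as circles, pLN day 25 as triangles, PP GL7+ as squares and PP GL7- as diamonds. TFH and CD4 T cell markers lay close together on all arrays, the B cell sum was highest on the GL7+ array and the epithelial sum on both arrays of PP replicate 1, and CD8 sums were lower on the PP arrays than on the pLN arrays.

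The first question was which transcripts set GL7+ TFH cells of PP apart from those of pLN. A gene was called when its adjusted p was under 0.05 and its absolute log2 fold change at least 1. Of 14547 genes tested, 788 (5.42%) were called, 396 (2.72%) higher and 392 (2.69%) lower in PP, with a median absolute log2 fold change of 1.62 among them. The median of all genes was 0.02. In 61 called genes the change was 3 or more. In 149 called genes the lower tissue was below background on all its arrays, and for these a fold is given as a lower bound, or not at all where the higher tissue was itself too dim for one. Of the called genes, 784 had PP arrays that did not overlap the pLN arrays, against 3129 (21.5%) higher and 2883 (19.8%) lower among all genes tested. This fit treated all arrays as independent, so its p-values for a tissue difference may be too small where arrays of 1 slide vary together. With slide as a random block, the estimated correlation between arrays of 1 slide was 0.74. In that fit 493 genes were called, 320 higher and 173 lower, so that the share of higher calls was 64.9% in place of 50.3%. Without PP replicate 1 the count was 235, without PP replicate 2 it was 302, and without the whole slide of PP replicate 1 it was 236. The 89 called genes named by rule led the order, belonged to a list or led the contrast with Treg and TFR cells described below. Of these 89, 48 lost their call without PP replicate 1, 50 without PP replicate 2 and 9 to 19 without 1 of the pLN arrays. The call was kept by 32 without every array in turn and by 24 in all 7 refits, which add the fit without the slide of PP replicate 1 and the fit with the block. With the 5 TFH arrays alone in the fit, limma called 0 genes, with 2422 at an unadjusted p under 0.05. An unpaired t-test on these 5 arrays called 3 after adjustment.

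Genes of the programme that defines TFH cells were called at about the share of all genes. Of 34 genes for TFH identity and function, 1 was higher and 1 lower in PP, 5.88% against 5.42% of all genes tested, and their median log2 fold change was 0.20. Bcl6 was at 70322, 42692 and 54741 on the arrays of day 12 replicates 1 and 2 and of day 25 (the order kept for pLN below), and at 72183 and 51429 in PP. Its log2 fold change of 0.15 (SE 0.29, adjusted p 0.826) turned to -0.091 without PP replicate 1. The tissues overlapped for this gene. Il21 was at 17879, 16636 and 15019 in pLN and 17168 and 15163 in PP, and Il4 at 37251, 41531 and 41848 in pLN and 41018 and 40009 in PP. Their log2 fold changes were -0.03 (SE 0.35) and 0.01 (SE 0.60), and the arrays of both tissues overlapped for either cytokine. Cxcr5 was at 101941, 86198 and 122913 in pLN and 169613 and 158615 in PP, without overlap but not called (log2 fold change 0.68, adjusted p 0.214). Pdcd1, the gene of PD1, and Icos had log2 fold changes of 0.38 and 0.54 and were not called either. Ascl2, a factor that turns on Cxcr5, was at 59656, 24717 and 43331 in pLN and 27675 and 16893 in PP (adjusted p 0.263).

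The called pair was Tcf7 and Prdm1. Tcf7, a factor that favours TFH differentiation, was at 64500, 85685 and 81649 in pLN and 156440 and 162134 in PP (log2 fold change 1.05, SE 0.19, adjusted p 0.0121). Prdm1, the gene of the Bcl6 antagonist Blimp-1, was at 820.5, 449.8 and 407 in pLN and 125 and 145 in PP (-1.98, SE 0.37, adjusted p 0.0132). Both tissues were apart for each gene, with Tcf7 higher and Prdm1 lower in PP. Each lost its call without PP replicate 1 (adjusted p 0.0941 and 0.121) and without PP replicate 2 (0.0873 and 0.0733). Tcf7 also lost it without day 12 replicate 1, where the log2 fold change fell under the threshold. The sum over 5 plasma cell markers was 95980.5, 43627 and 34379 in pLN and 51584 and 48046 in PP, highest on the array where Prdm1 was highest. On day 12 replicate 2 and day 25 the sum was below that of both PP arrays, while Prdm1 was above its PP level. Xbp1 alone made up 29093 to 35272 of the sum on each of the 5 arrays. The part of plasma cell RNA in the level of Prdm1 was not tested.

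Among genes that were higher in PP, the largest fitted change was that of Hic1, a transcriptional repressor (probe A_51_P355753, chromosome 11, 74978107 to 74978166 on mm9, the build of the array annotation). Hic1 was at 24.4, 27.2 and 49.8 in pLN, below background on all 3 arrays, and at 2183 and 2788 in PP. It was at least 44.4-fold higher in PP (log2 fold change 6.26, SE 0.26, adjusted p 7.47e-06). Smoc2, a secreted matrix protein, was at 20, 22.7 and 67.0 in pLN and 599 and 989 in PP, at least 14.8-fold higher (4.62, SE 0.23, adjusted p 1.13e-05). Npy, the gene of neuropeptide Y, was at 20, 20 and 44.8 in pLN and 440.5 and 474 in PP, at least 8.79-fold higher (4.13, SE 0.36). In these genes both PP arrays lay far above every pLN array. Gm13889, a gene of unknown function, was at 34.6, 56.8 and 254 in pLN and 1651 and 1251 in PP (4.18, SE 0.27). F2rl1, the protease-activated receptor 2, rose by a log2 fold change of 3.90, Esm1, a secreted proteoglycan, by 3.59, Wasf1, an actin regulator, by 3.50 and Srgap1, a GTPase-activating protein, at least 4.28-fold. All 8 genes kept their call without each array, without the slide of PP replicate 1 and with the slide block. Sun5, a protein of the nuclear envelope, was at 1742, 1292 and 1317 in pLN and 17713 and 14303 in PP (3.47, SE 0.42), and its adjusted p was 0.058 without that slide.

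The other leading genes that were higher in PP were Defa1, Defa23 and Gm15292. Defa1 and Defa23 encode defensins of Paneth cells, the secretory cells at the base of intestinal crypts, and the family has near-identical copies, so that the assignment to single genes is uncertain. Defa1 was at 28.2, 20 and 20 in pLN and 264 and 1011 in PP, at least 8.86-fold higher (adjusted p 0.00685). Defa23 was at 20 on the 3 pLN arrays and at 157 and 804 in PP, and Gm15292 at 131 and 414 in PP, at least 6.83-fold and 4.33-fold higher. PP replicate 2 was higher than replicate 1 for all 3, whereas the 10 epithelial markers were all higher on replicate 1. The part of epithelial RNA in these calls was not tested. With the slide block their adjusted p was 0.073, 0.1 and 0.1, and without PP replicate 2 it was 0.0669 for Defa1 and 0.0921 for Gm15292.

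Among the genes that were lower in PP, the transcript of the magnesium channel Trpm6 led the order. Trpm6 (probe A_55_P2037962, chromosome 19, 18966941 to 18967000 on mm9) was at 3406, 2922 and 2275 in pLN and 46.6 and 42.9 in PP, 63.3-fold lower (-5.98, SE 0.51, adjusted p 0.000305). Zbtb32, a repressor of cytokine genes, was at 1092, 3168 and 1383 in pLN and 26.8 and 27.9 in PP, at least 54.0-fold lower (-5.95, SE 0.54). Ccl8, a chemokine, was at 1509.9, 1749 and 849 in pLN and 30.0 and 20 in PP, at least 45.2-fold lower (-5.74, SE 0.46). For these genes the PP arrays lay at or near the floor. Stfa3, a cysteine protease inhibitor of the stefin family, was at 1652, 4476 and 9122 in pLN and 84.4 and 118 in PP (-5.35, SE 0.44, adjusted p 0.000294). Popdc2, a membrane protein that binds cyclic AMP, was at 9376, 8809.8 and 10010 in pLN and 372 and 303 in PP (-4.80, SE 0.40). Nrn1, the gene of neuritin, was at 5690.5, 9574 and 10019 in pLN and 270.0 and 363 in PP (-4.71, SE 0.30, adjusted p 5.81e-05). These 6 genes, and Fut7 below, kept their call without each array, without the slide of PP replicate 1 and with the block.

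Other leading genes rested on fewer arrays. Spp1, the gene of osteopontin, was at 1007, 1040.4 and 3623 in pLN and 40.5 and 88.2 in PP (-4.71, SE 0.61, adjusted p 0.00257), with an adjusted p of 0.053 under the block. Nrp1, the gene of neuropilin-1, was at 792, 1515 and 1549.8 in pLN and 20 and 44.3 in PP (-5.37, SE 0.83, adjusted p 0.00592). Its adjusted p was 0.0731 without PP replicate 1 and 0.084 without that slide. Slpi, the secretory leukocyte protease inhibitor, spread from 80797 through 14489 to 1570.1 over the pLN arrays and was at 593 and 168 in PP (-5.28, SE 1.27, adjusted p 0.0354). It lost its call without any 1 of the day 12 and PP arrays (adjusted p 0.0728 to 0.215) and under 14 of 23 alternatives in all.

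**Figure D2:**
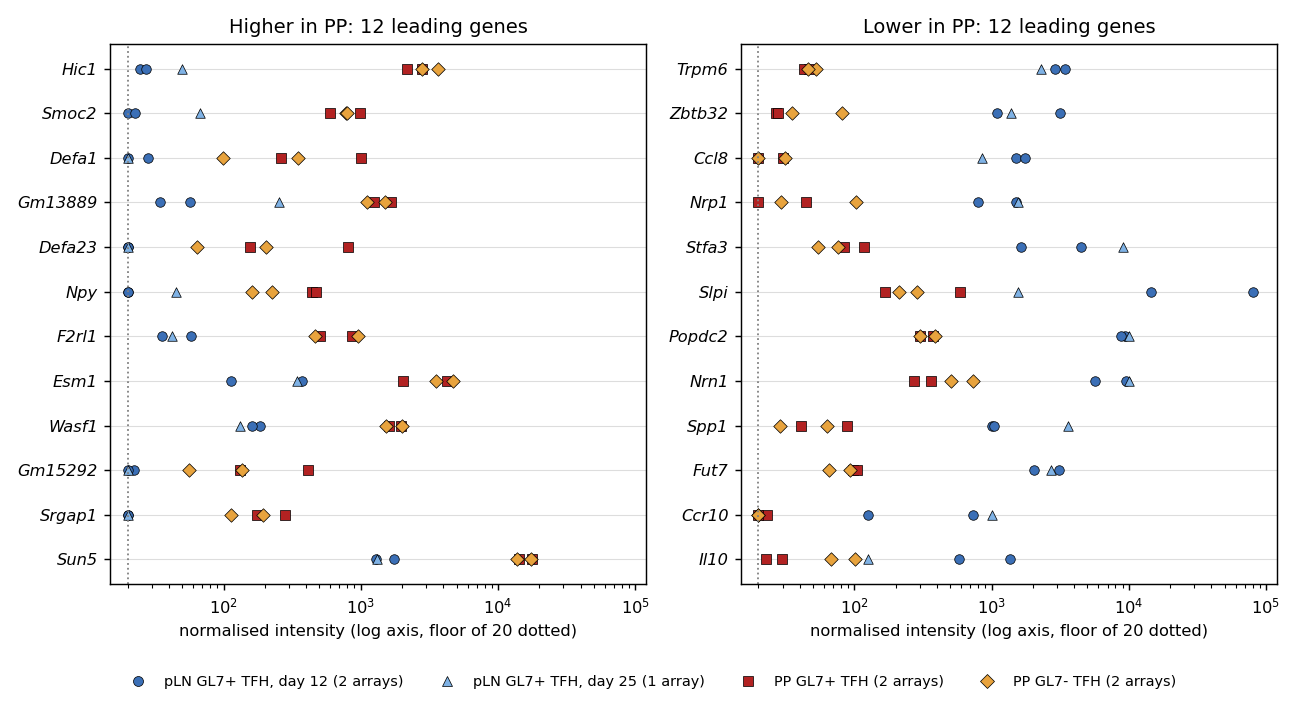
Normalised intensity (log axis, floor of 20 dotted) of the 12 genes with the highest and the 12 with the lowest log2 fold change among called genes without overlap, on each TFH array. PP GL7+ arrays (squares) and pLN arrays (circles for day 12, triangles for day 25) are apart in every gene, and the PP GL7- arrays (diamonds) lie on the PP side, except that they come close to day 25 for Il10.

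Promoter sequences from RefSeq (build GRCm38.p6, from 250 bases before to 50 after the annotated start, 5′ to 3′ on the strand of the gene) were available for 10941 of the tested genes. The windows of 4 leading genes are shown, 1 that was higher and 3 that were lower in PP. They are Hic1 at chr11:75170206-75170505 on the minus strand, Fut7 at chr2:25422992-25423291 on the plus strand, Nrp1 at chr8:128358823-128359122 on the plus strand and Stfa3 at chr16:36455343-36455642 on the minus strand. Hic1 and Fut7 each have a further annotated start that is not shown. Capitals mark a match to 1 of the 5 motifs named after the sequences, read on either strand.
Hic1: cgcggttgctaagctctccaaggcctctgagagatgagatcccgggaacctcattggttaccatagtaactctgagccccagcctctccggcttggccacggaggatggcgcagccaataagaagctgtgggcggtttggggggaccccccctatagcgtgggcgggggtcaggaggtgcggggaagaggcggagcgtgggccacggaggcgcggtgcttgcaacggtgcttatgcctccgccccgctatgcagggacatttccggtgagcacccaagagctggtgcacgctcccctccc
Fut7: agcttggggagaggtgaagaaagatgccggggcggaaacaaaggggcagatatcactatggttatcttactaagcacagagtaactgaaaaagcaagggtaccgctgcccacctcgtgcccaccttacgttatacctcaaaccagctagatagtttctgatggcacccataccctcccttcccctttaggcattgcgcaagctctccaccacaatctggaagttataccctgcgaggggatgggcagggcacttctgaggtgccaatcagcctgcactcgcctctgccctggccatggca
Nrp1: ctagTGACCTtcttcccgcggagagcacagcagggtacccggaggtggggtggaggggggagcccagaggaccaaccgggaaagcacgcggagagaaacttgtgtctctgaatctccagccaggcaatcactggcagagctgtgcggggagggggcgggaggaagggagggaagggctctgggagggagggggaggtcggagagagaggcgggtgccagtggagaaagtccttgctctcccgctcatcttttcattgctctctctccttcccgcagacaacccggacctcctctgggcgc
Stfa3: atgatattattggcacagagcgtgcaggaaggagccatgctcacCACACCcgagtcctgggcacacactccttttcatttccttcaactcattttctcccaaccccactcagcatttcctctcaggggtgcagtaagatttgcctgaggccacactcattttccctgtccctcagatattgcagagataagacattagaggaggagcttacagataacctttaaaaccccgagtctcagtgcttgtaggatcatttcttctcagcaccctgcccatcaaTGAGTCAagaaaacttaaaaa
The letters AGGTCA (the nuclear receptor core site to which retinoic acid receptors bind) were in 15.7% of all windows by gene, 14.8% of 290 genes called higher and 15.4% of 286 called lower. The direct repeat of AGGTCA with a spacer of 1 to 5 bases was in 0.0548% of all and in none of the called genes. TGACTCA, the AP-1 motif, was in 4.71%, 6.55% and 6.29%, CACGTG, an E-box, in 11%, 10% and 8.04%, GGTGTG, a core of Kruppel-like factor sites, in 21.25%, 19.0% and 23.4%, and ATCAAAG, a motif of TCF and LEF factors, in 3.06%, 2.41% and 2.80%. The Nrp1 window holds AGGTCA on the opposite strand, the Stfa3 window GGTGTG and TGACTCA on the opposite strand, and the windows of Hic1 and Fut7 none of these letters. A match describes the sequence only.

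The next comparison concerned genes that place T cells. Fucosyltransferase 7, the product of Fut7, completes the sugar that selectins of vessel walls bind. Fut7 (probe A_51_P445473, chromosome 2, 25281802 to 25281861 on mm9) was at 2039, 3111 and 2724 in pLN and 97.5 and 104 in PP, 25.7-fold lower (-4.68, SE 0.41, adjusted p 0.000322). Gcnt1, which branches the glycan that carries this sugar, was at 2990.2, 3727 and 3048 in pLN and 347 and 239.8 in PP (-3.49, SE 0.67, adjusted p 0.0139). Both tissues were apart for either gene. Of 15 genes for selectin ligand synthesis, 3 were called and all were lower in PP, 20% against 5.42% of all genes. The median of the list was 0.07. With the slide block 1 of the 15 was called. Gcnt1 lost its call without either PP array (adjusted p 0.0861 and 0.106).

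Genes of integrin chains and of integrin control, taken as 1 list, moved in both directions. Of 26 tested, 2 were called higher and 3 lower (median -0.02), 19.2% called against 5.42% of all genes. Itgb1, the beta1 chain, was at 13998, 14185 and 10361 in pLN and 1577 and 1542 in PP, 8.16-fold lower (-3.03, SE 0.27, adjusted p 0.000331), and it kept its call in all 7 refits. Itga4, the alpha4 chain that pairs with beta1 or beta7, was at 1252, 3130.2 and 2887 in pLN and 6739 and 9294 in PP (1.82, SE 0.46, adjusted p 0.0423). Itgb7, the beta7 chain, was at 22566, 35813 and 26051 in pLN and 16778 and 16070 in PP and was not called (-0.75, adjusted p 0.11). Plxnd1, a semaphorin receptor that acts on integrins, was at 9054, 3534 and 6763 in pLN and 709 and 602 in PP (-3.20, adjusted p 0.00149). Itgb5 had a log2 fold change of -1.73. Itgb8 was called higher, at 48.3 and 33.9 in PP and the floor in pLN, too dim for a fold. The calls of Itga4 and Itgb5 were lost without either PP array (adjusted p up to 0.223 and 0.303) and without day 12 replicate 1 (0.101 and 0.0851), that of Itgb5 also without the other pLN arrays, that of Plxnd1 without the slide of PP replicate 1 (0.07) and that of Itgb8 without PP replicate 1 (0.166).

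Of 16 chemokine receptors tested (20 listed), 2 were called and both were lower in PP, 12.5% against 5.42% of all genes, with a median of -0.37 over the list. With the slide block none was called. Ccr10 was at 126, 736 and 1002 in pLN and 22.9 and 20 in PP, at least 15.6-fold lower (adjusted p 0.011). It lost the call without either PP array (adjusted p 0.0865 and 0.08). Ccr9, the receptor for the small intestine, was at 168, 110.4 and 259 in pLN and 464 and 384 in PP (1.32, SE 0.36), without overlap but just over the threshold at an adjusted p of 0.0533. Ccr7, which guides T cells to the T zone, was at 7114, 13031 and 11615 in pLN and 3508 and 6211 in PP (-1.13, adjusted p 0.0585).

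Of 16 genes for positioning in or exit from the germinal centre, 2 were called, both lower (12.5% against 5.42% of all genes), and with the slide block none was called. Klf2, a factor that maintains S1pr1, was at 5952, 12611 and 7579 in pLN and 1815 and 2801 in PP (-1.88, SE 0.40, adjusted p 0.0225). S1pr1, the receptor used to leave lymphoid tissue, was at 2816, 4381 and 2613 in pLN and 1754 and 2011 in PP and was not called (-0.76, adjusted p 0.124). Klf2 lost its call without either PP array (adjusted p 0.202 and 0.0694) and without day 12 replicate 2 (0.0601), the array on which it was highest.

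IL-2 signalling opposes the TFH fate through STAT5 and Blimp-1. Of 20 genes of the pathway, 1 was called higher and 3 lower, 20% against 5.42% of all genes, with a median of 0.05. Il2ra, the alpha chain of the receptor, was at 743, 760.4 and 537 in pLN and 62.7 and 112 in PP, 8.02-fold lower (-3.00, SE 0.47, adjusted p 0.00632). Socs2, a target of STAT5, was at 468, 372 and 390.3 in pLN and 66.2 and 113 in PP (-2.24, SE 0.42, adjusted p 0.0136), and Prdm1, given above, was the other gene that was lower. Jak3, the kinase of the common gamma chain, was at 3773, 3042 and 2723 in pLN and 11280 and 7522 in PP (1.55, SE 0.35, adjusted p 0.0286). PP arrays were apart from pLN arrays in all 4 genes. Without PP replicate 1 the adjusted p was 0.0793 for Il2ra, 0.146 for Socs2 and 0.237 for Jak3, and Jak3 also passed 0.05 without PP replicate 2 (0.0761), day 12 replicate 2 (0.0735) or day 25 (0.0572).

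Cytokine axes outside the follicular programme were next. Il10, the gene of a cytokine that acts on B cells and limits inflammation, was at 1358, 582 and 125 in pLN and 29.8 and 22.9 in PP, at least 16.0-fold lower (-4.15, SE 0.56, adjusted p 0.00286), with an adjusted p of 0.064 without the slide of PP replicate 1. The order within pLN was day 12 above day 25. Of 20 genes of the type 1 axis, 3 were called and all were lower, 15% against 5.42% of all genes. The log2 fold change was negative for 15 of 20 (median -0.84), against 6969 of all 14547 genes tested. The GL7- TFH cells of PP did not share this shift, with a list median of -0.01 against the same pLN arrays. In Treg and TFR cells the list medians of PP against pLN were 0.11 and -1.12. Eomes was at 425, 1009 and 1542 in pLN and 128 and 214 in PP (-2.40, adjusted p 0.0204), Ccl3 at 111, 206 and 133 in pLN and 20 on both PP arrays (at least 5.01-fold lower, adjusted p 0.0178), and Il18rap at 127, 115 and 119.6 in pLN and 20.4 and 20 in PP (at least 4.16-fold lower, adjusted p 0.00622). Ifng was at 1234, 2603 and 4143 in pLN and 588 and 869.9 in PP and was not called (-1.73, adjusted p 0.089), nor was Tbx21 (-0.93, adjusted p 0.354). Cytotoxic CD8 T cells express these genes as well. Cd8a was at 1336, 519.7 and 1374 in pLN and 157 and 235 in PP (-2.36, adjusted p 0.0158) and Cd8b1 at 2349.9, 1475 and 2774 in pLN and 633 and 749 in PP (-1.63, adjusted p 0.0132). The part of CD8 T cell RNA in the type 1 genes was not tested. With the slide block none of the 20 type 1 genes was called (adjusted p 0.076 for Eomes, 0.13 for Ccl3 and 0.08 for Il18rap). The 3 called genes and both CD8 genes lost the call without either PP array (adjusted p 0.0512 to 0.188), Eomes also without day 25 (0.0647) and Ccl3 without day 12 replicate 2 (0.0595).

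Of 12 genes of the type 2 axis, Il10 and Il1rl1 were called. Il1rl1, the receptor for IL-33, was at 118, 144 and 264 in pLN and 26.5 and 32.5 in PP (-2.49, adjusted p 0.0129), and at 103 and 115 on the GL7- arrays of PP. Of 16 genes of the type 17 axis, Il27ra was called, at 8098, 8102 and 8919 in pLN and 21367 and 16695 in PP (1.18, adjusted p 0.00862). Of 22 inhibitory and costimulatory receptors, Cd96 was called, at 5183, 7830.3 and 8410.2 in pLN and 16033 and 17076 in PP (1.24, adjusted p 0.00961). Of 29 genes induced by the antigen receptor, Jun (-1.59, adjusted p 0.0136) and the phosphatase gene Dusp4 (-1.48, adjusted p 0.0145) were called, both lower in PP, with a list median of -0.05. Hspa1a was the 1 called gene of 15 for heat shock and dissociation stress, at 53.7 and 48.7 in PP and at the floor in pLN. In the order of this paragraph, the lists had 16.7%, 6.25%, 4.55%, 6.9% and 6.67% of genes called, against 5.42% of all genes. Without PP replicate 1, Il1rl1, Il27ra, Cd96, Jun, Dusp4 and Hspa1a lost their call (adjusted p 0.0765 to 0.237), and without PP replicate 2 Il1rl1, Cd96, Dusp4 and Hspa1a did (0.0713 to 0.151), Hspa1a also without each pLN array.

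Of 30 interferon response genes, 5 were called, all lower in PP, against 2.69% of all genes called lower. All 30 had a negative log2 fold change, with a median of -0.77, and in 23 of 30 both PP arrays were below every pLN array, against 19.8% of all tested genes. Ifit3 was at 677, 2485 and 2419.9 in pLN and 241 and 101 in PP (-3.36, SE 0.64, adjusted p 0.0136), and Usp18, which restrains interferon signalling, at 489.8, 1329 and 1338 in pLN and 184 and 148 in PP (-2.53, adjusted p 0.0121). Rsad2 and Rtp4 had log2 fold changes of -2.27 and -1.56, and Bst2, the gene of tetherin, of -1.16. Day 12 replicate 1 was the lowest pLN array, with a list median of -0.23 from the pLN mean, against 0.10 and 0.16 on the other pLN arrays and -0.83 and -0.73 in PP. Treg and TFR cells of the same slides had list medians of -0.73 and -0.96, and no gene of the list was called in the test of the difference between cell types described below. The block left 5 genes called and the fit without the slide of PP replicate 1 left 2. Without PP replicate 2 the 5 genes had adjusted p values of 0.0947 to 0.218, and all but Ifit3 also lost their call without PP replicate 1 (0.0656 to 0.101), Bst2 in addition without day 12 replicate 2 (0.074) or day 25 (0.0725).

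Of 33 cell cycle genes, 3 were called, all lower in PP, against 2.69% of all genes called lower, and with the block 1 was called. The log2 fold change was below 0 for 30 of 33, with a median of -1.25, and in 26 of 33 both PP arrays lay below every pLN array, against 19.8% of all genes. The called genes were Ccne1, the gene of cyclin E1, at 7696, 7753 and 5338 in pLN and 2790.5 and 2929 in PP (-1.26, SE 0.20, adjusted p 0.00624), Kif20a, a motor of cytokinesis (-1.70, adjusted p 0.0152), and the mitotic kinase gene Aurka (-1.54, adjusted p 0.0231). Mki67, the gene of Ki-67, was at 17399, 9259.9 and 3256 in pLN and 3195 and 4841 in PP (-1.04, adjusted p 0.26), so that day 25 lay within the range of PP. The list median was -1.54 against day 12 and -0.65 against day 25. On single arrays it deviated from the pLN mean by 0.19 and 0.21 on day 12, by -0.41 on day 25 and by -1.38 and -0.89 in PP, a shift that was larger on the array with more B cell and epithelial RNA. The part of these cells in the shift was not tested. Ccne1 lost its call without PP replicate 1 (adjusted p 0.0666), and Kif20a and Aurka without each array but day 25 (0.0509 to 0.207). Treg cells of the same slides had a list median of -0.37 and TFR cells of -1.69.

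The list with the most calls was that of S100 proteins, galectins and genes linked to the cytoskeleton, with 1 of 26 called higher and 11 lower, against 5.42% of all genes called, and a median of -1.08. The list was chosen with earlier results of these data known. It holds S100a4, Actg2 and Smtn, which the paper names from the same arrays, so its share of calls is no independent support. The same limit holds for the selectin, integrin and IL-2 lists above. The paper also names their called genes Fut7, Gcnt1, Itgb1, Plxnd1, Il2ra and Socs2. With the slide block 4 of the 26 genes of the S100 list were called lower and 1 higher. Lmna, the gene of lamin A, was at 704, 690.5 and 1323 in pLN and 107 and 54.3 in PP, 11.3-fold lower (-3.50, SE 0.38, adjusted p 0.00101). S100a4 was at 68233, 49835 and 47800 in pLN and 8722 and 4117 in PP (-3.19, SE 0.59, adjusted p 0.0121), and Lgals1, the gene of galectin-1, at 121717, 102701 and 78167 in pLN and 44724 and 28152 in PP (-1.48, adjusted p 0.0155). PP arrays were below pLN arrays for all 11 genes. Myeloid cells express several of these genes, and the sum over 10 myeloid markers was 11511, 8275 and 6573 in pLN and 8346 and 4000.3 in PP, lowest on PP replicate 2, where the list median was lowest too (-1.32 from the pLN mean against -0.83 on PP replicate 1). Fcgr1 and Clec9a were below background on all 5 arrays, Itgax and Adgre1 on day 12 replicate 2 and day 25, and none of the 9 that were tested was called. The part of myeloid RNA in the list was not tested. Lgals3 had a log2 fold change of -3.62, Anxa1 of -3.51, Ahnak of -2.38, S100a6 of -2.21, Vim of -2.01, Capg of -1.56, Actg2 of -1.50 and Emp3 of -1.41. The gene that rose was Actn1, an actin crosslinker, at 257, 532 and 377 in pLN and 2748 and 2669 in PP (2.86, SE 0.35, adjusted p 0.00181). Lmna and Emp3 kept their calls in all 7 refits, and Actn1 in all but that without the slide of PP replicate 1 (adjusted p 0.064). The other 9 lost theirs without PP replicate 2 (adjusted p 0.0632 to 0.301), and Lgals3, Anxa1, Ahnak, S100a6, Vim and Actg2 also without PP replicate 1 (0.0907 to 0.243) and without at least 1 pLN array (0.0588 to 0.138). Lgals1 lost its call without day 12 replicate 1 too (0.0548).

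**Figure D3:**
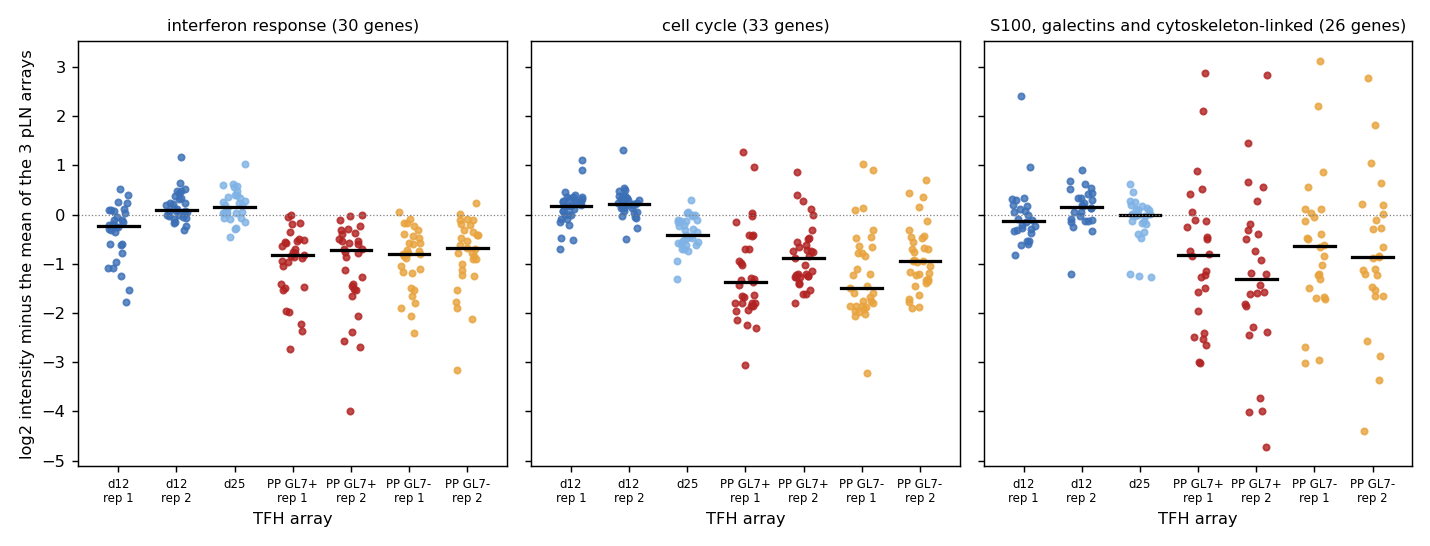
Deviation of each gene from the mean of the 3 pLN arrays (log2) on the TFH arrays, for the interferon response (30 genes), cell cycle (33) and S100, galectin and cytoskeleton-linked (26) lists, with the median as a bar. The medians of both PP GL7+ arrays lay between -1.38 and -0.73, below those of the 3 pLN arrays, which lay between -0.41 and 0.21, and the GL7- arrays of the same slides lay beside the GL7+ arrays.

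Several smaller lists held called genes of opposite direction. The share called was 23.5% for protease inhibitors and 16.7% for TGF-beta signalling, against 5.42% of all genes. Of 17 protease inhibitors, Stfa3, Slpi and Serpina3f (-2.45, adjusted p 0.00886) were lower, and Serpina9, a serpin of germinal centre B cells, was higher, at 364, 678 and 2316 in pLN and 6646 and 4719 in PP (2.75, adjusted p 0.0293). Of 24 genes of TGF-beta signalling, 3 were higher and 1 lower. Tgfb1, the ligand itself, was at 2587, 2855 and 3401 in pLN and 13491 and 9817 in PP, 3.93-fold higher (1.97, SE 0.26, adjusted p 0.00261), a call kept in all 7 refits. Ski, an inhibitor of SMAD proteins, rose by 1.42 and Pmepa1, a further negative regulator, by 1.28, while Acvr1, a receptor for bone morphogenetic proteins, fell by 2.26 on the log2 scale, from 494, 583 and 688 in pLN to 122 and 121 in PP. Other inhibitors of the pathway were not called, with -1.27 for Smad7 and 0.17 for Skil. Serpina9 and Serpina3f lost their call without either PP array (adjusted p 0.0621 to 0.21), Serpina9 also without either day 12 array (0.113 and 0.0772), Pmepa1 without either PP array (0.0917 and 0.13) and day 12 replicate 2 (0.068), and Ski and Acvr1 without the slide of PP replicate 1 (0.055 and 0.057).

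Retinoic acid, made from vitamin A in the gut, imprints gut homing on T cells. Of 17 tested genes for retinoids and vitamin D (24 listed), 2 were higher and 1 lower, 17.6% called against 5.42% of all genes. Tgm2, a transglutaminase gene that retinoic acid induces, was at 862, 467 and 640.5 in pLN and 3485 and 2458 in PP (2.20, SE 0.43, adjusted p 0.016), and Rdh12, a retinol dehydrogenase gene, at 5721, 3819 and 4241 in pLN and 21526 and 12845 in PP (1.88, adjusted p 0.0363). Rara, the gene of a retinoic acid receptor, was at 926, 1169.6 and 1347 in pLN and 404 and 388 in PP (-1.52, SE 0.17, adjusted p 0.00115), although 1 other probe of the gene had the opposite sign. Asb2, an ubiquitin ligase subunit gene that retinoic acid induces in other cells, was at 8461, 7755 and 11586 in pLN and 29592 and 30232 in PP but was not called (1.71, SE 0.51, adjusted p 0.0771), and its 1 other probe had the opposite sign. Tgm2 lost its call without either PP array (adjusted p 0.15 and 0.0677) and Rdh12 without any array (0.0554 to 0.275).

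Of 18 purine receptors and ectoenzymes, Cd38, which degrades NAD, was called higher, at 1236, 801 and 1822 in pLN and 7194 and 3016 in PP (1.94, adjusted p 0.0499). P2ry14, a receptor for UDP sugars, was at 147, 129 and 113 in pLN and 21.0 and 22.5 in PP, at least 4.45-fold lower (adjusted p 0.00112), and kept its call in all 7 refits. Enpp2, the gene of autotaxin, was lower by a log2 fold change of -1.69. Of 22 genes of lipid and sterol synthesis, 17 were above 0 (median 0.43), against 7578 of all 14547 genes, and 4 were called higher. The share called was 22.7% in this list, 16.7% in the purine list and 10% in that of apoptosis control below, against 5.42% of all genes. The factors Srebf1 and Srebf2 and the sterol reductase Dhcr7 had log2 fold changes of 1.17, 1.34 and 1.54, with Srebf2 at 4404, 4388 and 4706 in pLN and 11498 and 11203 in PP. Abca1, which exports cholesterol, had a log2 fold change of -1.66. Other synthesis genes were not called, among them Idi1 (-0.36) and Acaca (-0.48), and with the block 2 genes of the list were called, both higher. Of 20 genes of apoptosis control, Pawr was called higher, at 116, 74.7 and 168 in pLN and 1157 and 1236 in PP (3.40, SE 0.42, adjusted p 0.00196), in all 7 refits, and Bcl2l14 lower (-1.13, adjusted p 0.0118). No gene was called by limma or by the unpaired t-test among 25 for glucose use and hypoxia, 24 of the TNF superfamily and 23 of oxidative phosphorylation, with 5, 5 and 4 at an unadjusted p under 0.05. At 5.42% of all genes, lists of this size may hold no call, and with the block 1 gene for glucose use and hypoxia was called. Cd38, Srebf1, Srebf2, Dhcr7, Abca1 and Bcl2l14 lost their call without either PP array (adjusted p 0.0569 to 0.376), Enpp2 without PP replicate 2 (0.0825), and Cd38, Srebf1 and Abca1 also without day 12 replicate 1 (0.0895 to 0.101). Without day 12 replicate 2 the adjusted p was 0.165 for Cd38, and without day 25 it was 0.0808 for Abca1.

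**Figure D4:**
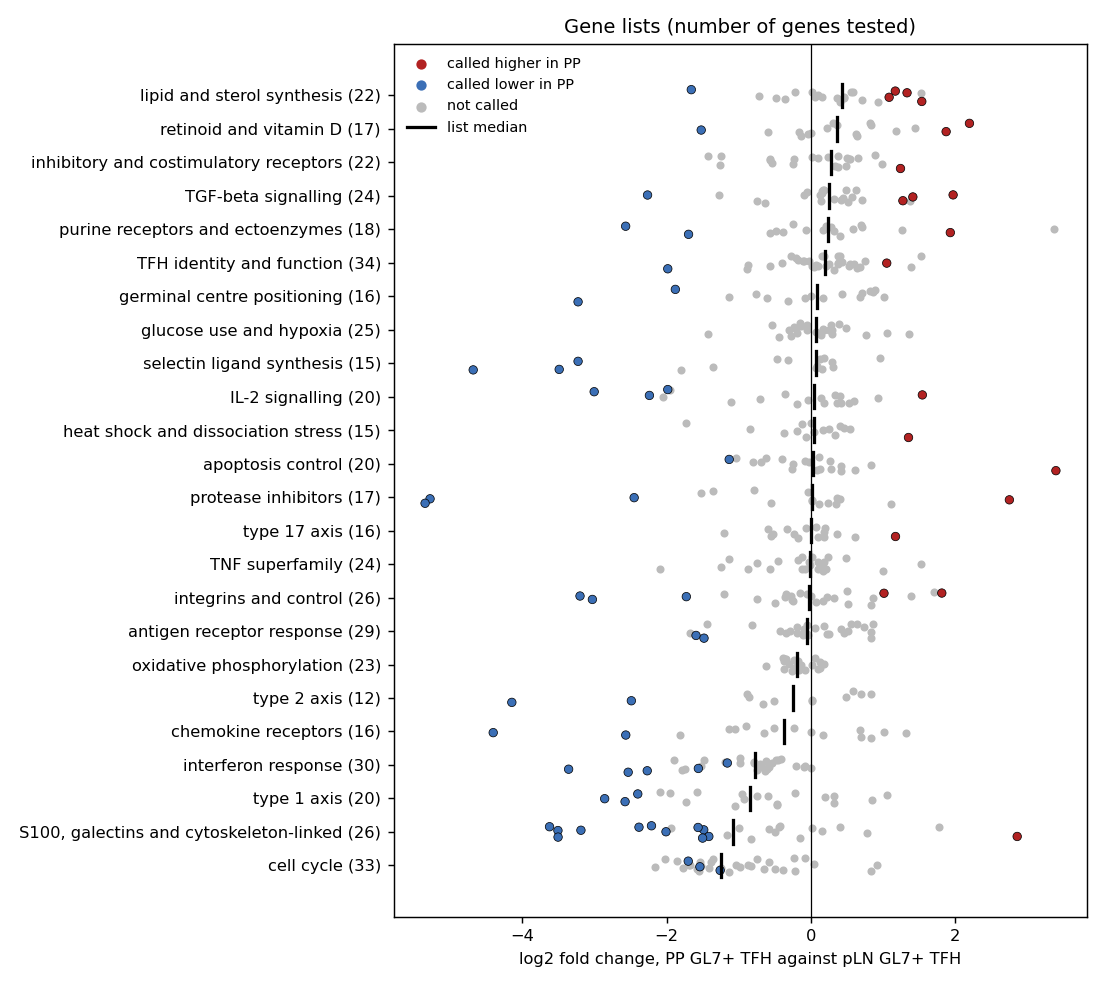
Log2 fold change of PP over pLN GL7+ TFH cells for the tested genes of 24 lists, with the number of genes in brackets, called genes in colour and the list median as a bar. Medians lay between -1.25 (cell cycle) and 0.43 (lipid and sterol synthesis), and called genes lay on both sides of 0 in 10 lists.

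Day 12 and day 25 were then taken apart. The comparisons share the PP arrays, and day 25 rests on 1 array that is assumed to vary like the groups of 2. Against day 12 alone, 741 genes (5.09%) were called, 375 higher and 366 lower in PP. Against day 25 alone, 166 genes (1.14%) were called, 64 higher and 102 lower. Day 25 lay on the PP side of the day 12 mean for 57.7% of genes called higher and 59.6% of genes called lower, against 54.8% of all genes tested. Examples are Gm13889 and Serpina9 above, and Gc, the gene of the vitamin D binding protein, which was at 79.5, 65.3 and 379 in pLN and 995 and 988 in PP. For others, such as Stfa3, Spp1 and Ifng, day 25 was the pLN array farthest from PP.

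The last comparison asked whether the tissue difference of GL7+ TFH cells exceeded that of Treg and TFR cells sorted in the same tissues. A slide effect that all cells of a slide share cancels in this contrast, since each slide held all 3 cell types. RNA of other cells differed within a slide. The B cell sum was 137659 and 16693 in PP Treg cells (replicates 1 and 2), against 48742 and 15528 in PP TFH cells. The epithelial sum was 44754 and 1821 against 16907 and 1737. Such sums were not taken for TFR cells or pLN Treg cells, and the part of this RNA in the contrast was not tested. Of 14547 genes, 106 (0.729%) were called, 23 with a difference more toward PP in TFH cells and 83 with one more toward pLN, and 980 had an unadjusted p under 0.05. Without the slide of PP replicate 1 the count was 45, without PP replicate 1 it was 31, without PP replicate 2 it was 19, and with the block it was 483. Smoc2 was the clearest gene of the first kind: it was at 599 and 989 in PP TFH cells, at 20 in Treg cells and at 20 to 33.6 in TFR cells of both tissues, a difference of differences of 4.41 (SE 0.28, adjusted p 0.000108). Gc likewise was at 20 to 23.2 on every Treg and TFR array (2.93, SE 0.18, adjusted p 0.000108). Both were called without each array, without that slide and with the block.

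Hic1 was not of this kind. In Treg cells it was at 103, 104 and 127 in pLN and 4486 and 3015 in PP, and in TFR cells at 40.1, 50.1 and 96.1 in pLN and 4287 and 6329 in PP, log2 fold changes of 5.06 and 6.49. Fut7 also had a like difference in each cell type, with -3.57 in Treg and -4.90 in TFR cells. Nrp1 showed little difference in Treg cells (0.06), while its difference of differences of -4.23 (SE 1.02, adjusted p 0.14) was not called. That contrast subtracts the mean of Treg and TFR cells. As it is smaller in size than the difference in TFH cells, Nrp1 was lower in PP in TFR cells too. For Il10 the directions opposed each other. It was at 1212, 503 and 194 in pLN Treg cells and 4527 and 3338 in PP Treg cells, higher in PP by a log2 fold change of 2.98 (adjusted p 0.018), and the difference of differences was -4.79 (SE 0.68, adjusted p 0.016). Il21, at a like level in TFH cells of both tissues, was at 429, 373 and 914 in pLN TFR cells and 4759 and 3489 in PP TFR cells (difference of differences -2.57, adjusted p 0.0356). The call of Il10 in this contrast was lost without either PP array (adjusted p 0.0838 and 0.13) or day 12 replicate 1 (0.0612), and that of Il21 also without day 12 replicate 2 (0.0681 to 0.239 over these 4 arrays).

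Genes of the vitamin A and D pathways formed part of the second kind. Dhrs3, which reduces retinal, was at 4114, 4914 and 8159 in pLN TFH cells and 8990.1 and 8109 in PP TFH cells, but at 454, 388 and 445 in pLN Treg cells and 9230.0 and 8917 in PP Treg cells (difference of differences -3.08, SE 0.22, adjusted p 0.000185). Vdr, the vitamin D receptor gene, was at 2789.8, 2612 and 2042 in pLN TFH cells and 2121 and 2702 in PP TFH cells, whereas PP TFR cells had 1653 and 1983 and pLN TFR cells 71.5, 115 and 175 (-3.12, SE 0.38, adjusted p 0.00682). For both genes the tissue difference was not called in TFH cells, while Treg and TFR cells were each higher in PP. Cyp26b1, which degrades retinoic acid, was at the floor on all TFH arrays, at 31.5, 24.5 and 87.7 in pLN Treg cells and 2133 and 1964 in PP Treg cells (-3.14, adjusted p 0.000108). Ccr9 was at 1599.8, 1444 and 1562 in pLN Treg cells and 22494 and 9905 in PP Treg cells (-2.58, adjusted p 0.0371). Vdr and Ccr9 lost this call without either PP array (adjusted p 0.0512 to 0.25) and without the slide of PP replicate 1, Ccr9 also without day 12 replicate 1 (0.0705) or day 25 (0.0864), while Dhrs3 and Cyp26b1 kept it in these fits.

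**Figure D5:**
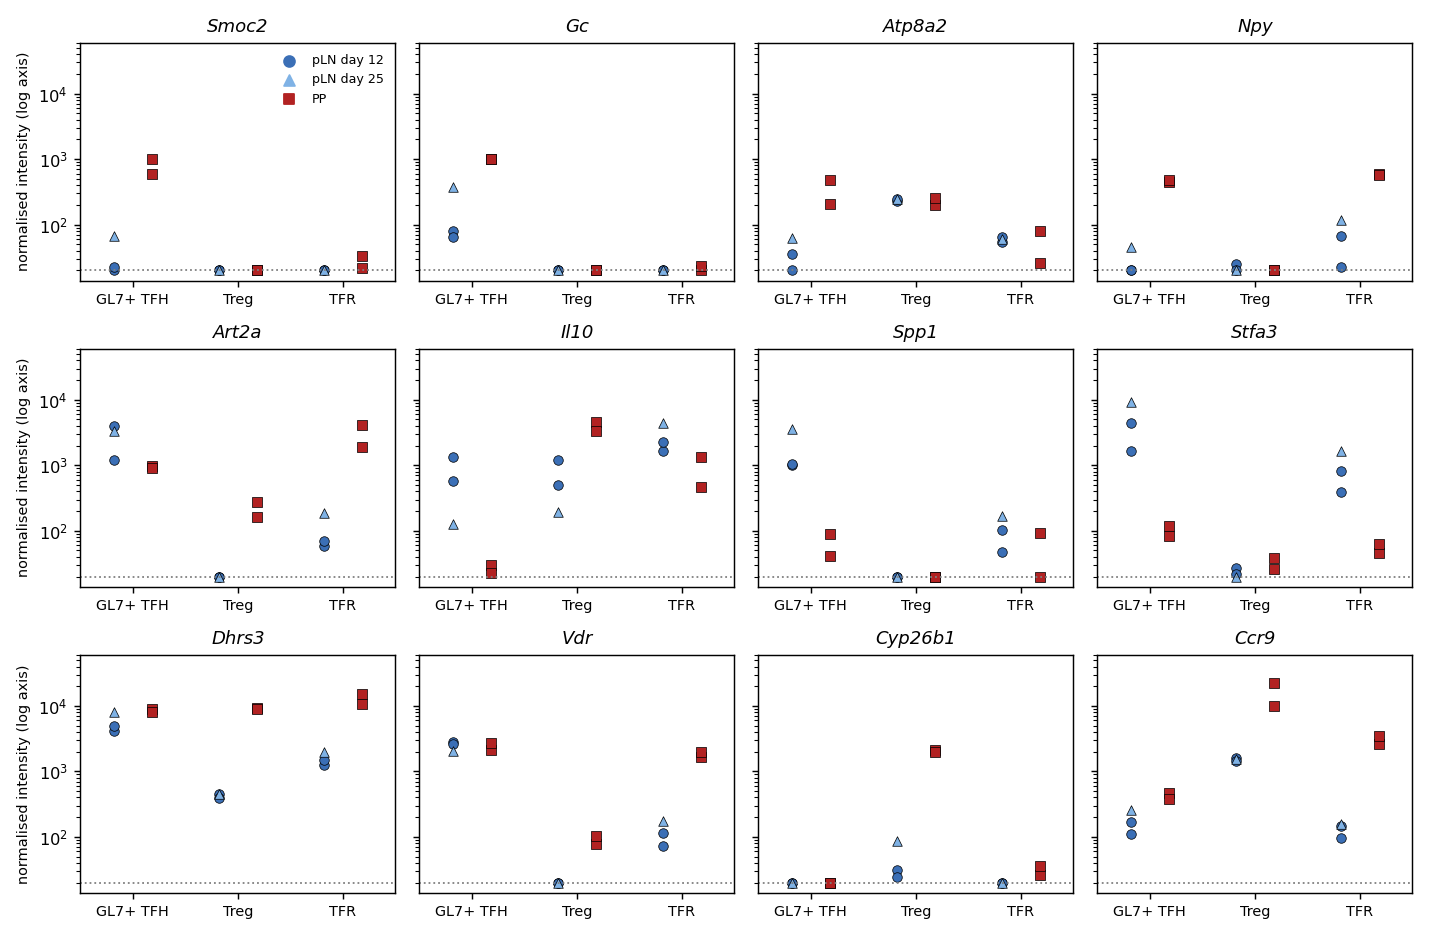
Normalised intensity (log axis, floor of 20 dotted) of 12 genes in GL7+ TFH, Treg and TFR cells, with pLN day 12 as circles, pLN day 25 as triangles and PP as squares. Smoc2 and Gc were at or near the floor on all Treg and TFR arrays, Il10 was lower in PP TFH and higher in PP Treg cells, and Dhrs3 and Vdr were high in TFH cells of both tissues.

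The GL7- TFH cells of PP, sorted on the same slides, lay near the GL7+ cells of PP over all tested probes, but not in every list. The root mean square log2 difference between both fractions of a slide was 0.31 and 0.38, below every difference between a PP and a pLN array. Hic1 was at 2793 and 3628, Smoc2 at 779.6 and 798, Trpm6 at 52.7 and 45.9 and Fut7 at 65.6 and 93.2 on the GL7- arrays. Against pLN, list medians of GL7- and GL7+ cells were close for the interferon response (-0.67 and -0.77) and the cell cycle (-1.29 and -1.25). They parted for the type 1 axis (-0.01 and -0.84), the type 17 axis (1.05 and -0.0004) and chemokine receptors (0.10 and -0.37). Il2ra was at 174 and 333 on the GL7- arrays and at 62.7 and 112 on the GL7+ arrays of PP. Eomes, at 459 and 1382 on the GL7- arrays, lay above both GL7+ arrays of PP. These arrays share slides, and perhaps mice, with the GL7+ arrays and are no independent support.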

How the data were processed

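GL7+ TFH cells were measured on single-colour Agilent 4-feature-per-probe arrays. The authors scanned them and extracted features with Agilent Feature Extraction 10.7.3.1, as the file headers give it, and the deposited scanner values are background-corrected intensity values (gProcessedSignal). A table of the authors' own normalised intensities was also deposited and, taken to log2, served as an alternative. From the intensities, the authors' steps were rebuilt: outlier features were left out (interquartile multiplier 1.42, pixel coefficient of variation up to 0.5), features were averaged per probe, quantile normalisation followed, then a common 75th percentile (1500), a floor (20) and log2. Detection of a probe required the scanner's above-background mark on 3 or more of 4 features. Of 39429 probes, the 22264 for which both arrays of some group met this were tested, and 27591 were matched to a RefSeq symbol. Precision is limited by the number of arrays. Between 45.2% and 56.9% of probes were detected on the TFH arrays.

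limma 3.58.1 in R 4.3.3 fitted the means of 12 groups over all 20 arrays, with Benjamini-Hochberg adjustment over all probes. The contrast was PP minus the mean of the 3 pLN arrays. Each gene is shown by its tested probe with the highest mean. Where the lower group was not detected on any array, the fold is a lower bound: the brighter group's mean over the dim group's mean of, per array, the higher of the lowest detected signal and the probe's own value, on the log2 scale. Tables and figures used Python 3.11.15. Genes were named by rule: the 12 largest changes in each direction that were called, did not overlap and were detected in the higher group, every called member of 24 lists, uncalled members where a list's reading needs them, and 6 in each direction for the contrast with Treg and TFR cells. Sequences came from RefSeq promoters. The members and lists were chosen with earlier results of these data known, so the shares of calls in the lists are no independent support. Alternatives were other pLN weights, fits on fewer arrays, other scalings, background and filters, slide as a random block, RNA input, array weights, the methods' t-test and each array or PP slide left out. Some called members of the lists are not reported here.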

Additional observations from a re-analysis of the deposited data

Results flagged for a closer look

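The tissue difference of GL7+ TFH cells differed from the mean of those of Treg and TFR cells, by the interaction contrast in limma, for the 12 genes given here as log2 differences of differences. More toward pLN in TFH cells were Art2a (-5.59), Il10 (-4.79), Spp1 (-4.14), Dnase1l3 (-4.00), Stfa3 (-3.63) and Grtp1 (-3.43). More toward PP were Smoc2 (4.41), Atp8a2 (3.38), Gc (2.93), Kcnj15 (2.62), Npy (2.50) and Gm13889 (2.44). Art2a, a T cell ecto-ADP-ribosyltransferase gene, was at 3928, 1212 and 3395 in pLN TFH cells and 984 and 908 in PP TFH cells, but rose in TFR cells from 57.9, 69.3 and 189 to 1920.2 and 4162. Grtp1 rose in all 3 cell types, by less in TFH cells. Kcnj15 was near the floor in TFH cells of both tissues and lower in PP TFR cells, while its lower level in PP Treg cells was not called. All 12 were called with slide as a random block, Art2a, Grtp1, Smoc2 and Gc without each array in turn, and Smoc2 and Gc alone without the slide of PP replicate 1. Spp1 lost its call without any 1 of the 5 arrays (adjusted p 0.0695 to 0.265).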

How the results depend on the processing

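No paired analysis was possible because each slide holds 1 tissue and the replicate numbers follow accession order. The count of 788 called genes became 166 against day 25 alone, 0 with the 5 TFH arrays alone in the fit (2422 at an unadjusted p under 0.05), 221 with the 7 TFH arrays, 493 with slide as a random block, 1330 with RNA input as a covariate and 3 by an unpaired t-test on the 5 TFH arrays (2725 at an unadjusted p under 0.05). It was 236 without slide 4, which held PP replicate 1, 363 without slide 5, which held PP replicate 2, and 235 to 741 without 1 array. The 741 genes against day 12 became 0 (2194 at an unadjusted p under 0.05) with 5 arrays, 146 with 7 arrays, 399 with the block, 1433 with RNA input, 164 and 357 without slides 4 and 5 and 203 to 741 without 1 array. The 166 against day 25 became 0 with 5 arrays and with 7 (1411 and 1734 at an unadjusted p under 0.05), 257 with all probes, 35 with the block, 771 with RNA input, 64 and 76 without slides 4 and 5 and 44 to 173 without 1 array. The 106 genes of the contrast with Treg and TFR cells became 19 against day 25 alone, 176 with all probes, 65 with probes detected in TFH arrays, 483 with the block, 246 with RNA input, 45 and 12 without slides 4 and 5 and 19 to 108 without 1 array. The cause of these moves was not tested. Under 75th percentile scaling 46.1% of calls were higher in PP. The direction turned for 5 uncalled genes. Bcl6 came to -0.014 with 75th percentile scaling and -0.091 without slide 4, Il21 to 0.10 against day 25, 0.0036 with equal weight for the days and 0.060 without slide 5, and Il4 to -0.047 against day 25, -0.0022 with equal weight, -0.16 with 75th percentile scaling and -0.0052 without slide 4. Vdr came to 0.23 against day 25, 0.028 with equal weight, 0.023 with RNA input and 0.14 without slide 4, and Mki67 to 0.27 against day 25. Without 1 array, Bcl6 lay between -0.091 and 0.40, Il21 lay between -0.12 and 0.060, Il4 lay between -0.041 and 0.043 and Vdr lay between -0.21 and 0.14. With 2 PP arrays and 1 array for day 25, genes near the floor had the least precise values.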
